A study of Mus musculus with 8 samples.

Results

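The effect of 5AZA on DNA methylation in the obstructed kidney was examined in 4 of the 8 libraries of the series. The DNA was extracted from renal cortex together with outer medulla, from wild-type male C57BL/6J mice whose age the labels do not give. UUO with 5AZA (2 libraries) was unilateral ureteral obstruction for 7 days with 5AZA at 1 mg per kg per day in saline, injected into the peritoneum. UUO (2 libraries) was the same obstruction of the left ureter for 7 days with no 5AZA, and the labels do not mention saline injections for these mice, although the names of their deposited tables call them saline. The assay was RRBS (reduced representation bisulfite sequencing): MspI cuts DNA at CCGG, and short fragments are converted with bisulfite, so that unmethylated cytosines read as thymine. Of 1849739 autosomal CpG positions covered in any of the 4 libraries, 1009946 had at least 10 reads in all 4. Summed in stretches of 1000 bases that held at least 3 such positions, called windows here, they gave 95724 windows on 19 autosomes. The level of a window is the share of its reads that were methylated, in percent, and differences between levels are in percentage points.

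Methyl groups on CpG cytosines are copied to the new strand after replication by the maintenance methyltransferase DNMT1, while DNMT3A and DNMT3B can add them to unmethylated sites. The labels do not spell out 5AZA; nucleoside drugs of the azacytidine type, for which the name is commonly used, are built into the DNA of dividing cells and trap these enzymes, so that daughter strands lose methylation passively over cell divisions. In mammalian genomes most isolated CpGs are methylated and most CpG-dense islands are not, and ureteral obstruction is a standard rodent model of kidney fibrosis with tubular injury, inflammatory infiltration and fibroblast proliferation.

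The 4 libraries held 57853745 and 64539660 reads over CpG positions in UUO with 5AZA, and 76730132 and 65733691 in UUO. A window held a median of 220 and 240 reads in the 5AZA libraries, against 274 and 241 in the UUO libraries, so the 5AZA group was the less deeply read. It is not stated whether each library stands for its own mouse, and SDs and p-values therefore cover only the spread between these libraries. The DNA came from mixed tissue, and a change in the makeup of cells and a change of methylation within cells cannot be told apart. No RNA was measured, so the tissue label was not checked against marker genes.

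Methylation was lower with 5AZA in the average window. The mean over windows was 66.2% and 65.6% in the 5AZA libraries, against 69.1% and 69.2% in the UUO libraries. Neither 5AZA library reached a UUO library, and the difference lay between -3.55 and -2.87 points in the 4 possible pairs. The group means were 65.9% ± 0.385 with 5AZA and 69.1% ± 0.0948 in UUO (SD, n = 2 each), a difference of -3.21 points, or 4.64% of the UUO level. A two-sided exact permutation test gave p = 0.333, the smallest p that 2 against 2 libraries can give. The same p holds for every class of windows below in which the groups do not overlap, so that the size of each difference is read against the spread within the pairs. With all reads pooled, so that deep positions weigh most, the sign turned, at 40.6% and 42.3% with 5AZA against 39.9% and 41.3% in UUO, and the groups overlapped.

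The difference varied with the level at which a window started. To class windows without using the libraries compared, the level in the sham-operated control of the obstruction series was taken as the starting level; this control is 1 library, so the classes carry its sampling error. Windows at 90% or more in the sham were at 91.3% and 90.2% with 5AZA, against 94.2% and 94.4% in UUO. Those at 70 to 90% were at 79.8% and 78.8% with 5AZA, against 84.0% and 84.1% in UUO. Those at 30 to 70% were at 50.6% and 50.7% with 5AZA, against 54.8% and 54.9% in UUO. In these 3 classes the 5AZA libraries lay well apart from the UUO libraries, with differences of -3.56, -4.73 and -4.19 points from the highest class down. The 19636 windows at 10 to 30% were at 18.5% and 18.9% with 5AZA, against 18.9% and 18.9% in UUO, and here the difference of -0.16 points was within its SD of 0.243 points.

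The class at 10 to 30% held many windows in which the ends of MspI fragments weigh on the level. These ends were filled in with methylated dCTP, per the labels' protocols, so that a CpG at the edge of a fragment can read as methylated whatever its state in the tissue. Positions where read depth stepped by more than 10% to a CpG neighbour within 250 bases, or that had no such neighbour, were taken as edges. In windows whose other CpGs were below 10% in the sham, 242773 edge positions averaged 31.7% and 31.7% with 5AZA, against 32.3% and 32.4% in UUO. The 292675 positions inside fragments of the same windows averaged 2.30% and 2.30% with 5AZA, against 2.53% and 2.57% in UUO. At the other end, where the inside level was 90% or more in the sham, edge positions differed by -2.68 points and inside positions by -4.76 points between UUO with 5AZA and UUO. Levels were therefore also taken from the 419547 inside positions alone, which filled 33910 windows.

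Inside fragments, methylation was lower with 5AZA in every class of starting level, and by the most points in the middle of the scale. Windows at 30 to 70% in the sham averaged 49.2% and 48.0% with 5AZA, against 56.9% and 56.9% in UUO, a difference of -8.29 points (SD of the difference 0.849, n = 2 each). Those at 70 to 90% averaged 78.4% and 76.8% with 5AZA, against 83.9% and 83.9% in UUO, a difference of -6.29 points. Those at 90% or more averaged 89.5% and 87.9% with 5AZA, against 93.4% and 93.6% in UUO, a difference of -4.84 points. The 1836 windows at 10 to 30% averaged 17.9% and 17.5% with 5AZA, against 22.4% and 22.5% in UUO, a difference of -4.77 points. The 19312 nearly unmethylated windows, below 10% in the sham, averaged 2.44% and 2.45% with 5AZA, against 2.78% and 2.82% in UUO. In these windows the sham was at 2.28% and the sham of the ischemia series at 1.45%. These 2 untreated libraries were both below the 5AZA libraries and lay further apart than the groups, which differed by -0.358 points. In none of these 5 classes did a 5AZA library reach a UUO library. From the lowest class up, the sham that set the classes averaged 2.28%, 18.5%, 51.9%, 82.6% and 94.1%. The UUO mean was above the sham in every class but the highest, for example 56.9% against 51.9% at 30 to 70%. The differences given are from UUO, and part of them lies above the sham level. What raised UUO over the sham was not tested.

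**Figure D1:**
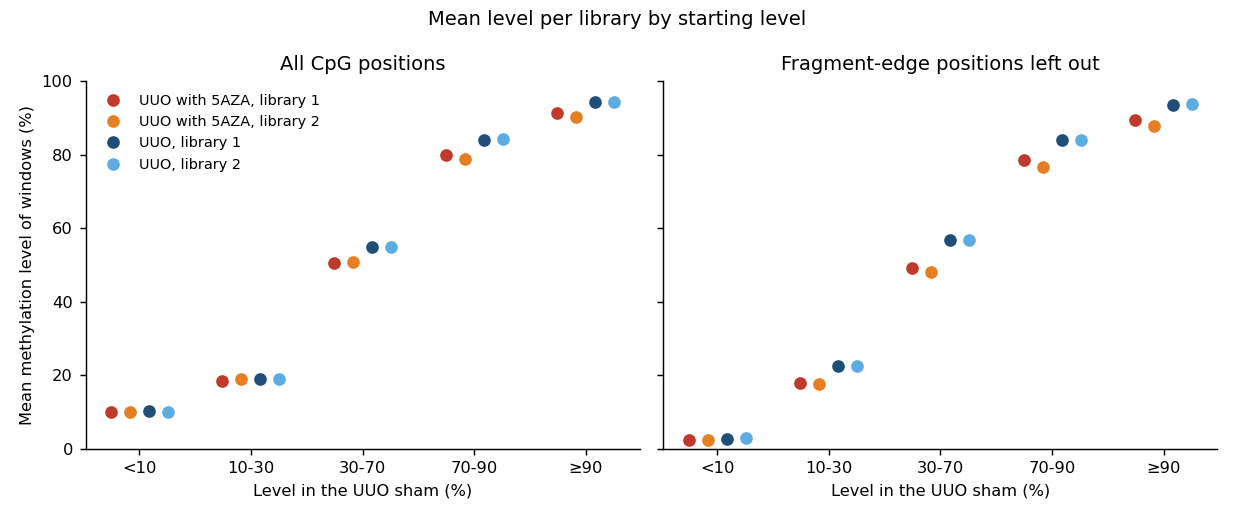
Mean methylation level of windows (vertical axis, percent) in each of the 4 libraries, by the level of the window in the UUO sham (horizontal axis, percent), with all CpG positions on the left and without fragment-edge positions on the right; each point is 1 library. At 10 to 30% the 4 libraries coincide on the left, while on the right the 5AZA libraries are at 17.9% and 17.5% and the UUO libraries at 22.4% and 22.5%.

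In proportion to the UUO level, the difference followed another order. Inside fragments, UUO with 5AZA was lower by 5.18% of the UUO level in windows at 90% or more, by 7.49% at 70 to 90%, by 14.6% at 30 to 70%, by 21.2% at 10 to 30% and by 12.8% below 10%. Set against the UUO mean, 5AZA library 1 was lower by 20.5% and library 2 by 22.0% of that level in the 10 to 30% class, while at 90% or more the values were 4.34% and 6.02%. This order rests on UUO as the reference. At 10 to 30% the 5AZA mean was 17.7%, against 18.5% in the sham and 22.5% in UUO. At 90% or more it was 88.7%, against 94.1% in the sham and 93.5% in UUO. Below 10% it was 2.44%, above the 2.28% of the sham. In classes of 10 points the difference from UUO in points was widest at 40 to 50% in the sham, at -8.71 points. The proportional difference was widest at 20 to 30%, at -21.7%. Another scale is the odds, the ratio of methylated to unmethylated reads, computed here from the mean level of each class. On the log2 odds scale the difference was -0.20 below 10% and -0.40 at 10 to 20%, lay between -0.55 and -0.48 in the 6 classes from 20 to 80%, and was -0.63 at 80 to 90% and -0.88 at 90% or more. The middle of the range was thus nearly even on the odds scale, where neither points nor proportions were. With edge positions kept, the proportional difference was widest at 50 to 60%, at -8.45%.

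**Figure D2:**
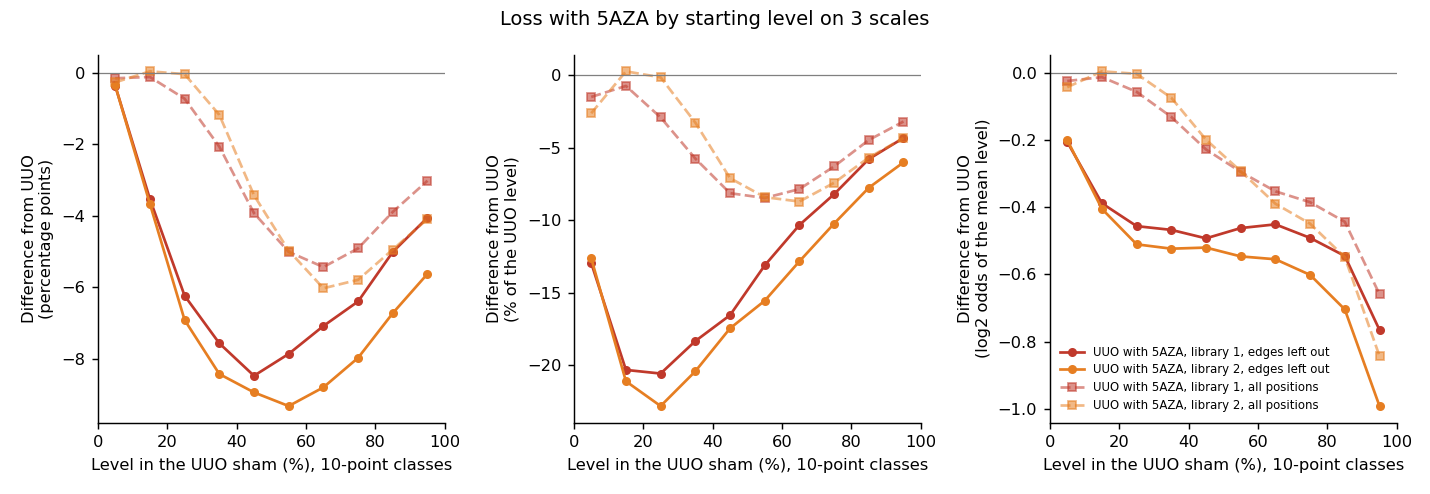
Difference of each 5AZA library from the UUO mean by level in the UUO sham in classes of 10 points (horizontal axis, percent), in percentage points, as a percentage of the UUO level and in log2 odds of the mean level; solid lines leave out fragment edges and dashed lines keep them. Without edges the group difference in points is widest at -8.71 for windows at 40 to 50%, the proportional one at -21.7% for those at 20 to 30%.

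CpG-dense windows were low in methylation in both groups and differed by few points. Density was taken as the number of measured CpG positions in a window, which depends on the fragments covered and is not the CpG count of the genome. Over all positions, windows with 3 to 5 positions were at 79.7% and 78.8% with 5AZA, against 83.2% and 83.3% in UUO. Windows with 20 or more were at 18.5% and 18.9% with 5AZA, against 18.7% and 18.8% in UUO, and the difference of -0.06 points was below its SD of 0.270 points. With the level of a window taken as the mean of its positions, a setting added after seeing the data, this last difference was -0.57 points. Inside fragments the densest windows were at 2.84% and 2.89% with 5AZA, against 3.03% and 3.11% in UUO. From the sparsest to the densest of 4 density classes the difference inside fragments was -4.78, -1.89, -0.48 and -0.20 points. The proportional difference in these classes was -8.31%, -8.49%, -8.44% and -6.58%, a far narrower range.

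The density classes differ in starting level, and within a level the proportional difference was not even. Among windows below 10% in the sham, the loss inside fragments was 19.4% of the UUO level in windows with 3 to 5 CpG positions and 15.0%, 9.66% and 6.06% in the denser classes. Among those at 10 to 30% it was 24.4%, 17.8%, 12.7% and 8.80% in the same order. At 30 to 70% the order was less regular, with 14.9% and 14.0% below 10 positions and 8.52% and 10.8% above, the last over 33 windows. At 90% or more the values ran from 5.26% in the sparsest to 3.76% in the densest class, the last over 7 windows. In points, the difference in the sparsest class was wider than in each denser class of the same starting level, for all 5 levels. Below 10% the shares are of low levels, with UUO means of 3.69% in the sparsest and 2.28% in the densest windows. There the 5AZA means of 2.97% and 2.14% were above the sham, at 2.65% and 2.03%.

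**Figure D3:**
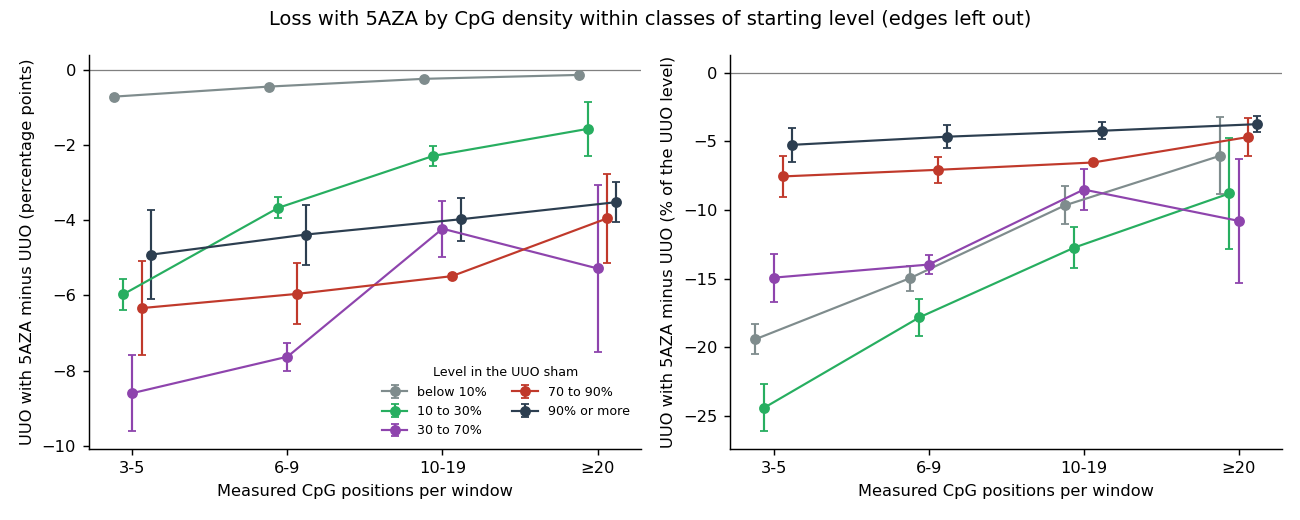
Difference between UUO with 5AZA and UUO inside fragments by number of measured CpG positions per window (horizontal axis), in percentage points on the left and as a percentage of the UUO level on the right; each line is a class of level in the UUO sham and bars are the SD of the difference between groups (n = 2 each). At 10 to 30% the proportional difference shrinks along the axis, with losses of 24.4% in the sparsest and 8.80% in the densest windows.

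The levels inside a class could still differ between dense and sparse windows. Both were therefore set side by side in 18 bins of 5 points of the sham level, from 10% up. Each bin was weighted by its number of dense or of sparse windows, whichever was smaller. The 634 dense windows, with 10 or more positions and 343 of them at 10 to 30%, were at 38.5% and 38.6% with 5AZA, against 41.6% and 41.9% in UUO. The 11917 sparse windows, with 3 to 5 positions, were at 38.7% and 37.8% with 5AZA, against 44.5% and 44.4% in UUO. The difference was thus -3.20 points, or -7.67%, in dense windows and -6.21 points, or -13.96%, in sparse ones, and their ranges over the 4 library pairs did not overlap (-3.40 to -3.00 and -6.68 to -5.73 points). The level of dense minus that of sparse windows was -0.20 and 0.75 points in the 5AZA libraries, against -2.93 and -2.54 points in the UUO libraries. This gap differed between the groups with an exact permutation p of 0.333, again the smallest possible. Matching was on the sham level alone and left the UUO means unequal, at 41.7% in dense and 44.5% in sparse windows. The 5AZA means were 38.5% and 38.3%. The contrast between dense and sparse windows thus lay mostly in the UUO libraries, and windows of equal UUO level were not compared. Matched on the sham of the ischemia series instead, the differences were -3.49 points in dense and -6.53 points in sparse windows. Over all positions, edges included, the matched differences were -2.69 and -3.22 points. The contrast varied with level. Inside fragments it was -2.13 in dense and -5.46 in sparse windows at 10 to 30%, and -4.47 and -8.68 at 30 to 70%. It was -5.20 and -6.38 at 70 to 90%, and -3.94 and -4.91 at 90% or more, where the ranges overlapped (-4.42 to -3.46 and -5.84 to -3.98 points). With edges included, dense and sparse windows differed by -4.80 and -4.74 points at 70 to 90%, and by -3.41 and -3.60 at 90% or more. This matching and the distance to the nearest CpG below were chosen after seeing the data.

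A count per window says little about how close CpGs lie, so inside positions were also grouped by the distance to the nearest measured CpG. At 10 to 30% in the sham, positions with a neighbour 2 to 5 bases away were at 14.8% and 14.3% with 5AZA, against 17.0% and 17.4% in UUO. Positions whose nearest neighbour lay 25 to 49 bases away were at 18.98% and 19.06% with 5AZA, against 26.0% and 25.8% in UUO. From the nearest to the farthest neighbours the difference was -2.73, -5.09, -6.24 and -6.87 points, with limits at 6, 12 and 25 bases. The same order was seen at each of the other starting levels, with a narrower range above 30%: from -7.33 to -8.89 points at 30 to 70%, from -5.96 to -6.92 points at 70 to 90% and from -4.67 to -5.92 points at 90% or more. Distance groups were not matched on level. From the nearest to the farthest neighbours, the UUO mean rose from 17.2% to 25.9% at 10 to 30% and from 54.3% to 58.1% at 30 to 70%. It fell from 84.0% to 82.4% at 70 to 90% and from 94.1% to 92.4% at 90% or more. Proportional differences ran from -15.8% to -26.5% at 10 to 30% and from -13.5% to -15.3% at 30 to 70%. Positions of 1 window share fragments and reads and are not replicates, and no test was made over them.

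The lower level was spread over many windows. In 47155 windows, 49.3% of all, each 5AZA library was lower than each UUO library, and in 5351, or 5.59%, each was higher. Inside fragments these shares were 40.5% and 8.26%, and by starting level the share of windows with both 5AZA libraries lower was 23.8% under 10%, 48.1% at 10 to 30%, 60.9% at 30 to 70%, 65.8% at 70 to 90% and 67.6% at 90% or more. In this highest class the median difference was -4.60 points, with 5% of windows below -11.01 and 5% above 0.462 points. In the class at 30 to 70% the median was -8.25 points, with 5% of windows below -20.5 points. Sampling error of single windows is part of this width. In the 30 to 70% class, 38.4% to 43.9% of windows were at least 10 points lower in a 5AZA library than in a UUO library over the 4 pairs, against 13.8% when 5AZA library 2 was set against library 1 and 10.95% when UUO library 2 was set against library 1.

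**Figure D4:**
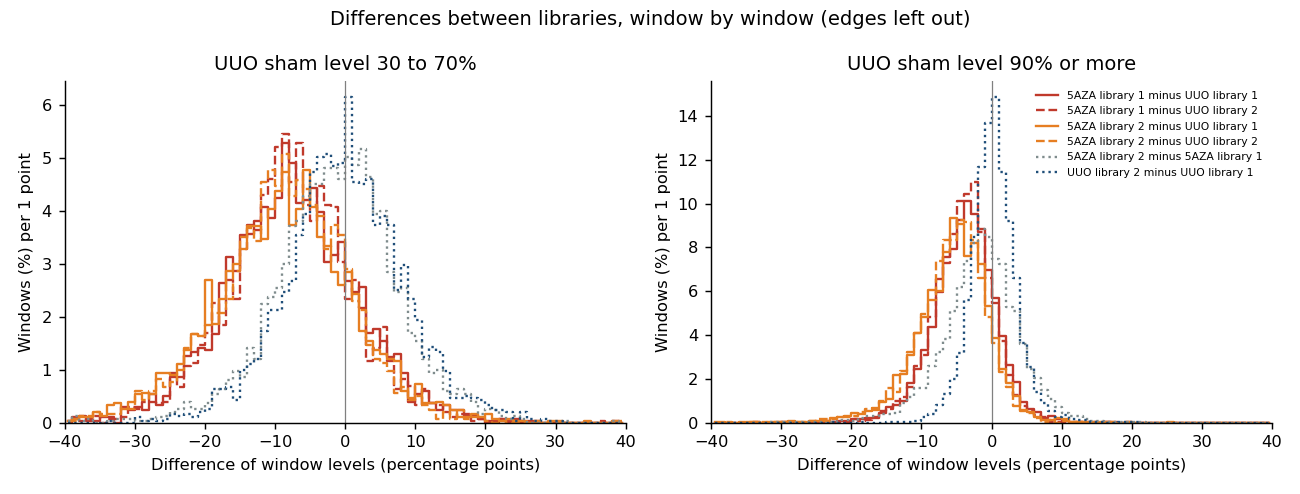
Share of windows (vertical axis, percent per 1 point) by difference of window level between 2 libraries (horizontal axis, percentage points), inside fragments, for 2 classes of sham level, 30 to 70% (left) and 90% or more (right). The 4 curves of a 5AZA library minus a UUO library peak left of 0; at 90% or more the curve of 5AZA library 2 minus 5AZA library 1 also lies left of that for the UUO pair.

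Inside fragments, the 5AZA libraries were less alike than the UUO libraries in the classes of starting level at 30% or more. 5AZA library 2 differed from library 1 by -1.57 points at 90% or more, by -1.67 points at 70 to 90% and by -1.20 points at 30 to 70%. UUO library 2 differed from library 1 by 0.20, 0.05 and -0.02 points in these classes. The wider gap was not seen in every subset: over all positions at 30 to 70% it was 0.12 points in the 5AZA pair and 0.14 points in the UUO pair, and inside fragments at 70 to 90% with 10 to 19 positions, over 48 windows, 0.02 and -0.08 points. At 90% or more, 6.41% of windows were at least 10 points lower in 5AZA library 2 than in 5AZA library 1, and 0.29% in UUO library 2 than in UUO library 1. Below 10% the 5AZA libraries differed by 0.01 points. What set these 2 libraries apart was not tested.

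Large regions showed the lower level throughout. The autosomes were divided into regions of 5 Mb, and the 480 regions with at least 30 windows at 70% or more in the sham were compared over all positions. In 480 of them, or 100%, each 5AZA library was lower than each UUO library. The regional difference had a median of -4.07 points and ran from -5.53 to -2.96 points. The 5AZA pair alone differed by -1.94 to -0.18 points between its 5th and 95th percentile over regions, and the UUO pair by -0.54 to 0.90 points. Between autosomes the mean difference of such windows lay between -4.23 points on chromosome 3 and -3.87 points on chromosome 19, and inside fragments between -5.83 points on chromosome 16 and -5.13 points on chromosome 15. Regions and chromosomes share the same 4 libraries and are not replicates. Adjoining windows resembled each other weakly, with r = 0.09 between the differences of 5191 pairs of windows that lay 1 kb apart, against 0.03 for the differences of the 5AZA pair and 0.05 for those of the UUO pair.

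Single windows were tested with a quasi-binomial logistic model whose dispersion was moderated with limma, and called at a Benjamini-Hochberg adjusted p below 0.05 with at least 10 points between group means. With 5AZA, 513 windows fell, 0.536% of the 95724 tested, and 5 rose, 0.00522%. At an unadjusted p below 0.05 there were 23362 windows, 24.4%, of which 22518 were lower with 5AZA and 844 higher. The number of calls depended on the test, with 129 falls and 2 rises in edgeR and 0 of either in limma fitted to log2 ratios, which left 21355 windows at an unadjusted p below 0.05. It also rested on single libraries, with 38 falls and 0 rises without UUO library 1, and 2505 falls and 110 rises without 5AZA library 1. The falls averaged 62.1% with 5AZA and 77.0% in UUO, and their mean in the sham was 68.4% over the 509 that had a sham level. Having been picked for the gap between both groups, they cannot be used to judge its size.

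Over all positions, falls were most frequent among windows of intermediate level and of 6 to 19 CpG positions, and inside fragments the density classes ranked otherwise. Of the windows at 30 to 70% in the sham, 242 of 15338 fell, or 1.58%. At 70 to 90% it was 182 of 22490, or 0.809%, and at 90% or more 71 of 35033, or 0.203%. At 10 to 30% it was 14 of 19636, or 0.0713%, and below 10% 0 of 747, a class whose mean level in UUO was 10.2%. By density, falls made up 0.327% of windows with 3 to 5 positions, 1.09% with 6 to 9, 1.04% with 10 to 19 and 0.263% with 20 or more. Falls had more reads than other windows, a median of 376.5 per library against 243 over all windows, and the part of depth in the calls was not tested. Inside fragments 368 windows fell, 1.09% of 33910, and 2 rose, 0.0059%, with 4.47% of windows at 10 to 30% and 5.31% at 30 to 70% called as falls. By density, falls inside fragments made up 1.41% of windows with 3 to 5 positions, 1.55% with 6 to 9, 0.595% with 10 to 19 and 0.184% with 20 or more. Of the 513 falls, 259 also had enough inside positions, and 181 of these were called there too. In these 259 windows the median difference was -17.05 points inside fragments and -13.20 points over all positions.

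Among the windows that the naming rule picked, 8 falls also passed with at least 20 reads per position, in edgeR, with edges left out, with a replicate block and with each library left out in turn, the settings in which these windows were followed one by one. In limma on log2 ratios no window passed, these 8 included. The widest was on chromosome 9 (mm9, from 114625001 to 114626000), with 5 CpG positions at 36.8% and 39.8% with 5AZA, against 67.5% and 70.5% in UUO, a difference of -30.7 points (adjusted p = 0.00886, quasi-binomial model). Its 4 inside CpGs, from base 114625852 to base 114625996, lay between 24.2% and 34.4% in the 5AZA libraries and between 60% and 67.4% in the UUO libraries. At its edge CpG, base 114625845, the level was 77.4% and 85.2% with 5AZA, against 89.2% and 93.5% in UUO, so the edge showed a narrower gap than its neighbour 7 bases on. The window on chromosome 11 from 52147001 to 52148000 had the same form. It was at 41.1% and 38.9% with 5AZA, against 63.7% and 65.3% in UUO (-24.5 points, adjusted p = 0.0130, quasi-binomial model), with 5 inside CpGs at 23.3% to 28.6% in the 5AZA libraries and at 49.1% to 62.7% in the UUO libraries. The edge CpGs at both ends of this stretch, bases 52147287 and 52147402, were at 73.8% to 79.5% with 5AZA and at 86.4% to 92.7% in UUO.

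The denser of these named windows were lower at many of their CpGs. On chromosome 10 from 79616001 to 79617000, 14 positions were at 35.9% and 35.1% with 5AZA, against 54.0% and 56.0% in UUO (-19.5 points, adjusted p = 0.00364, quasi-binomial model), and 14 of 14 positions were lower. On chromosome 4 from 139760001 to 139761000, 13 positions were at 36.8% and 33.2% with 5AZA, against 51.3% and 57.5% in UUO. On chromosome 1 from 94773001 to 94774000, 20 positions were at 62.0% and 59.7% with 5AZA, against 74.2% and 78.7% in UUO, and each of the 20 was lower on the group mean. On chromosome 17 from 29989001 to 29990000, 21 positions were at 47.95% and 49.004% with 5AZA, against 63.3% and 64.8% in UUO, and 20 of the 21 were lower. The chromosome 2 window from 32597001 to 32598000, with 23 positions, was at 28.1% and 25.4% with 5AZA, against 40.8% and 40.3% in UUO, and 12 of its 12 inside CpGs were lower. In the sham these 5 windows stood at 28.1% to 67.8%. They were picked for wide falls over these same positions, and neighbouring CpGs share reads. Counts of lower or higher CpGs, here and in the named windows below, thus describe picked windows and are no test.

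Among the named windows the largest number of positions was on chromosome 17 from 32533001 to 32534000. Its 43 positions were at 18.7% and 18.8% with 5AZA, against 35.1% and 29.9% in UUO, a difference of -13.7 points or -42.2% of the UUO level (adjusted p = 0.00886, quasi-binomial model). Each of its 26 inside CpGs was lower, by 10.2 to 22.2 points, with levels of at most 23.7% in a 5AZA library and at least 14.5% in a UUO library. In the sham the window was at 16.9%, close to the 5AZA libraries and below both UUO libraries. The other named falls were of -31.9 to -14.4 points. The widest of all, on chromosome 2 from 105075001 to 105076000, held 4 edge positions and was at 34.1% and 41.9% with 5AZA, against 69.0% and 70.9% in UUO; its adjusted p in the quasi-binomial model was 0.0281, and 0.0894 without UUO library 1. Taken as the mean of its positions, each of the 25 named falls differed by -30.9 to -13.8 points, which describes windows that were picked for their fall.

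**Figure D5:**
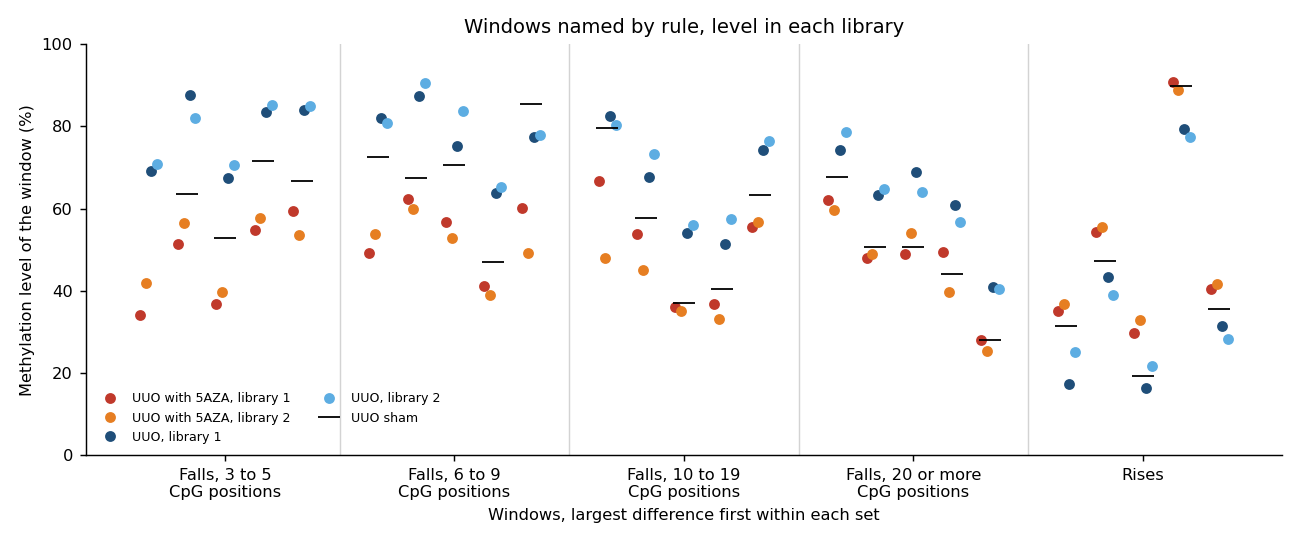
Methylation level (vertical axis, percent) in each library of the 5 widest falls in each density class and of the 5 rises, with the level in the UUO sham as a black bar where it was measured; each point is 1 library. The naming rule fixes that both 5AZA libraries are below both UUO libraries in the falls and above in the rises; the sham bar lies between the groups in some windows and beside the 5AZA or UUO points in others.

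None of the 5 rises passed in all of these settings, and 2 of them were not seen in the mean over CpG positions. On chromosome 8 from 24319001 to 24320000 the window was at 35.1% and 36.8% with 5AZA, against 17.4% and 25.1% in UUO. The mean of its 11 positions differed by only 1.63 points. A position near the end of the window, base 24319996, was at 98.3% and 99.1% with 5AZA, against 100% and 96.1% in UUO, but held 232 and 321 reads with 5AZA, against 14 and 154 in UUO. The chromosome 2 window from 135876001 to 135877000 was at 54.3% and 55.6% with 5AZA, against 43.4% and 39.0% in UUO, while the mean of its 7 positions differed by -1.28 points and 6 of the 7 were lower. For the 513 falls, the mean of positions had the same sign in 513 and was at least 10 points lower in 476. These falls were picked for a gap in the same reads, so this is no separate evidence for them.

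The other 3 rises were also seen in the mean over positions, which differed by 11.9, 12.2 and 13.9 points. On chromosome 4 from 53727001 to 53728000, 35 positions were at 29.8% and 32.9% with 5AZA, against 16.3% and 21.6% in UUO, with the sham at 19.3% (adjusted p = 0.0213, quasi-binomial model). All 24 inside CpGs of this window were higher, by 10.6 to 20.6 points, but the rise of the window was 9.76 points without UUO library 1. On chromosome 4 from 133428001 to 133429000, 6 positions were at 90.8% and 88.9% with 5AZA, against 79.4% and 77.4% in UUO, with the sham at 89.7%, so the UUO libraries stood apart here from the other 3. On chromosome 12 from 81269001 to 81270000, 22 positions were at 40.4% and 41.7% with 5AZA, against 31.4% and 28.4% in UUO, with the sham at 35.5% between them. Without UUO library 2 this last rise was 9.59 points.

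Reads were not spread alike over positions in the 4 libraries, and this touches any value in which reads are summed. With positions weighted equally in classes of mean depth, the level was lower with 5AZA in each class. In the class of 50 to 100 reads, which held 53.3% of all reads, it was 36.4% and 36.1% with 5AZA, against 38.0% and 38.0% in UUO. With the reads of the same positions pooled it was 36.2% and 38.2% with 5AZA, against 35.0% and 37.0% in UUO. In the pooled value library 2 was the higher one of each group, and the groups overlapped. At the 478 positions of 1000 or more reads, with 4.18% of all reads, positions were again first weighted equally. The level was then 33.3% and 32.0% with 5AZA, against 35.2% and 36.2% in UUO. With their reads pooled it was 34.4% and 37.4% with 5AZA, against 36.0% and 35.9% in UUO, and the groups overlapped.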

How the data were processed

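RRBS libraries were grouped by sample title. The submitters' processing notes name Bowtie and the mm9 build; the methylation caller is not given in the sources used here. Each deposited table holds, per CpG, a count of reads and a count of methylated reads made by the authors, not normalized, and a level that the authors give as a fraction. Tables were joined in pandas 2.3.3 (numpy 2.4.6, Python 3.11.15). Methylated and total reads were summed in 1000-base windows. Median depth per covered position was 33 to 48 reads. Reads spanning several CpGs count at each and PCR duplicates are not marked, so depth overstates independent molecules.

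The mean chi-square per position between the 2 libraries of a group was 1.17 with 5AZA and 1.23 in UUO, above the 1 of independent reads, which unmarked duplicates can also give; the libraries carry separate labels and values and were counted as 2. Windows were tested with a quasi-binomial logistic model on the 4 libraries, with Pearson dispersion moderated with squeezeVar (R 4.3.3, limma 3.58.1) and held at 1 or above, and a two-sided F test (2 residual and 8.82 prior degrees of freedom). The script was tested on simulated data. Exact permutation tests used scipy 1.17.1. For edges, the change of depth to a neighbour was taken without sign in each of the 4 libraries and summed. This sum was divided by the larger total depth of the pair, with neighbours of at least 20 reads in total. A position without such a neighbour on 1 side was also an edge. Named windows were, among calls with the same direction in all 4 pairs of libraries, the 5 widest falls per density class, the 2 widest proportional falls per starting level and the 5 widest rises, 30 in all. Alternatives were other read and position minimums, an upper depth limit, 300-base windows, edges left out, edgeR 4.0.16, limma on log2 ratios (pseudocount 1), other classings, single libraries left out and a replicate block. The comparison, classes and rules were chosen with earlier results of these data known. The reference tables were of another build than mm9 and were not used here, so windows carry coordinates alone, without gene names or sequences.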

Additional observations from a re-analysis of the deposited data

How the results depend on the processing

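The mean difference between UUO with 5AZA and UUO kept its sign in all settings except with reads pooled, where it was 0.837 points. It was -2.75 points with edges left out, -2.06 with positions weighted equally and -0.996 with each library on its own positions. Same-numbered libraries share only a number, and their deviations correlated at 0.07 over all windows and 0.04 inside fragments; the replicate block left the mean difference at -3.21 points and gave 2828 falls and 48 rises. Falls and rises were 246 and 4 at 20 reads, 566 and 5 at 5 reads, 321 and 3 with an upper limit on depth, 368 and 2 without edges, 11 and 0 in 300-base windows, 25 and 0 with at least 5 positions, 129 and 2 with edgeR, 0 and 0 with limma, 928 and 12 with no minimum difference, 61 and 0 with at least 20 points, and 413 and 4 with all 8 libraries fitted. With 1 library left out they ran between 38 and 2505 falls and between 0 and 110 rises; the library left alone in its group is then assumed to vary like the other pair. The 129 falls in edgeR were all among the 513 reported, and these were all among the 2828 under the block.

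Without edges, losses by starting level from below 10% to 90% or more were -0.358, -4.77, -8.29, -6.29 and -4.84 points, or -12.8%, -21.2%, -14.6%, -7.49% and -5.18% of the UUO level. By density they were -4.78, -1.89 and -0.484 points below 20 positions, and -8.31%, -8.49%, -8.44% and -6.58%. Over all positions, edges kept, the main losses were -0.211 points below 10%, -0.158 at 10 to 30% and -4.19 at 30 to 70%. With edges kept and window levels as means of positions they were -0.386 points (-3.34%), -0.598 (-3.23%) and -4.61 (-8.45%) in these classes. By density they were then -2.27 (-5.20%) with 10 to 19 positions and -0.571 (-3.17%) with 20 or more. At 20 reads, edges kept, they were -3.91 points (-7.26%) at 30 to 70% and -1.24 (-3.31%) with 10 to 19 positions. Classed by the ischemia sham, edges kept, they were -0.0503 points (-0.483%) below 10% and -4.48 points at 30 to 70%. Classed by 1 UUO library and taken from the other, edges kept, they were -0.0314 (-0.338%) and -3.63 (-6.96%). Inside fragments, 182 of 182 alternative values kept their negative sign and 17 moved by more than the spread between libraries; the edge limit of 5% left 28662 windows and that of 20% left 36221. Means of positions, edge limits, matched densities, CpG distances and depth classes were added after seeing the data. The part of depth in the calls was not tested.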
